A study of Mus musculus with 16 samples.

Results

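The genes described here are 30 markers of the cells that wrap the vessels and the surface of the brain: 5 pericyte genes, 6 smooth muscle genes, 2 basement membrane collagens and 17 genes of the leptomeninges. They were taken from a fixed list of members out of the 18193 genes that had a probe set with 1 gene symbol, and each gene was represented by its probe set with the highest mean over 16 arrays. Of the 30, 27 passed the filter on low values (a mean above 3.58 log2 units, the 40th percentile) and entered the tests. Hippocampal total RNA was measured on Affymetrix mouse arrays, 1 array per animal. All animals were female 3xTg-AD mice aged 14 months, a model of Alzheimer's disease with mutant human APP and tau transgenes under the neuronal Thy1 promoter. From 10 months of age, 8 of them ate a control diet and 8 ate a diet with pioglitazone (PIO, a thiazolidinedione that activates the nuclear receptor PPAR gamma) at 84 ppm for some 14 weeks, which gave a daily dose near 18 mg/kg. Both groups carry the same alleles, so every level below is that of 3xTg-AD hippocampus, and mice without the transgenes were not analysed here. Values are log2 expression as deposited, and a difference of 1 is a doubling.

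Pericytes sit on capillaries inside the vessel's basement membrane and depend on platelet-derived growth factor made by the endothelium. Smooth muscle cells ring arterioles and contract through actin and myosin filaments whose genes are driven by serum response factor (SRF) and its partner myocardin, which bind the CArG box in their promoters. Leptomeningeal fibroblasts line the brain surface and follow larger vessels inwards, make fibrillar collagen, and carry transporters for organic anions and amino acids. Choroid plexus, which hangs in the ventricle beside the hippocampus, has its own vascular stroma and an epithelium that shares some of these genes, among them Igf2.

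RefSeq promoter sequences (GRCm38.p6) were at hand for 23 of the 30 members, 4 of them smooth muscle genes. The 250 bases before the annotated start are shown for Acta2 and Myl9, because these smooth muscle genes moved with the leptomeningeal set, and for the fibroblast collagen gene Col1a2 beside them. Capitals mark each CArG box of 10 bases, searched on both strands with up to 1 mismatch allowed, and each line reads 5′ to 3′ on the gene's strand.

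Acta2, chr19:34255374-34255623, minus strand: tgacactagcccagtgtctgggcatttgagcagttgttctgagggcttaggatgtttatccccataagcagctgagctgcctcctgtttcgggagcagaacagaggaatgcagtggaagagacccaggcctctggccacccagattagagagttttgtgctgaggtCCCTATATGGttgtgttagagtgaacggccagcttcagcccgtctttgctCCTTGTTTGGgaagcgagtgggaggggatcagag

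Myl9, chr2:156775214-156775463, plus strand: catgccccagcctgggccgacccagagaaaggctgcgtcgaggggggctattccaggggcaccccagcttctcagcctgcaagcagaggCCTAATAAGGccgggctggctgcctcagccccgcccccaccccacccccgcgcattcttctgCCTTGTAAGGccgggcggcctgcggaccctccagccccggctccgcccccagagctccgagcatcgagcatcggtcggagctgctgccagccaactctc

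Col1a2, chr6:4505368-4505617, plus strand: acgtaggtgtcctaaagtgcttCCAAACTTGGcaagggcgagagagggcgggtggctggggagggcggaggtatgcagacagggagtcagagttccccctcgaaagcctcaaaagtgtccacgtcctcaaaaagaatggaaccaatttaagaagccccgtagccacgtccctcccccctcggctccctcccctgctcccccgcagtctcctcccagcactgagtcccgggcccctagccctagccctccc

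Acta2 held a pair of matches with 1 mismatch each, at -84 to -75 and at -34 to -25 from the start. Myl9 held an exact box at -161 to -152 and a match with 1 mismatch at -99 to -90. Col1a2 held 1 match, with 1 mismatch, at -228 to -219. Paired matches were not limited to smooth muscle genes, since 1 of the 4 annotated starts of the leptomeningeal member Igf2 (chr7:142661272-142661521, minus strand) held 2, of which 1 was an exact box. Among all 32851 promoter entries 1.47% held an exact box, 8.59% held at least 1 match with up to 1 mismatch and 0.67% held at least 2. The smooth muscle genes Cnn1 and Des had none in this window. A match is a description of the letters only.

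Neuronal transcripts were high in every animal. Neurod6, a transcription factor gene of pyramidal neurons, lay between 12.6 and 13.3, and Snap25, a synaptic vesicle fusion gene, between 15.7 and 15.9. Some other genes of the hippocampal neuron list varied more: Prox1 from 7.06 to 8.77, C1ql2 from 8.30 to 10.1 and Dsp from 8.64 to 10.4. The mean of that list was lowest in PIO animals 15 (-0.54) and 14 (-0.47). The choroid epithelium varied most. Ttr, which encodes transthyretin and is the most abundant choroid transcript, ran from 10.6 to 16.6. The mean of 19 choroid epithelium genes, taken relative to all arrays, fell into 6 arrays between -3.23 and -2.15 (control animals 1, 4, 5 and 7 and PIO animals 9 and 13) and 10 arrays between 0.49 and 2.51, with a gap of 2.64 between them. Striatal markers were highest in PIO animals 15 and 14 (list means 1.11 and 0.92) and thalamic markers in PIO animal 16 (1.57). In whole tissue, fewer cells of a type and less RNA per cell cannot be told apart.

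All 5 pericyte genes passed the filter on low values, and their spans over the arrays ran from 1.42-fold to 2.86-fold. Pdgfrb, the receptor for platelet-derived growth factor B, ran from 8.79 over a median of 9.32 to 9.44 in controls and from 9.01 over 9.33 to 9.47 with PIO. Rgs5, a regulator of G protein signalling and a classical pericyte marker, ran from 11.7 over 11.8 to 12.0 in controls and from 11.6 over 12.0 to 12.1 with PIO. The 2 diets overlapped almost wholly for both genes, and the highest array was 1.60 times the lowest for Pdgfrb and 1.42 times for Rgs5. Kcnj8 and Abcc9 encode the pore and the sulphonylurea receptor of the vascular ATP-sensitive potassium channel. Kcnj8 ran from 5.32 over 5.70 to 6.22 in controls and from 5.18 over 5.72 to 6.29 with PIO. Abcc9 ran from 6.89 over 7.29 to 7.55 in controls and from 6.87 over 7.15 to 7.52 with PIO. Their span over all arrays was 2.16-fold and 1.60-fold. A second Abcc9 probe set above the filter correlated with the first at r = -0.14, and the second probe set of Pdgfrb with its first at r = 0.51, so the pattern of these genes depends on the probe set.

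Vtn, which encodes vitronectin and is a strong pericyte transcript in brain, was the pericyte member with the widest span, 2.86-fold. It ran from 10.2 over 10.9 to 11.4 in controls and from 9.84 over 10.8 to 11.3 with PIO. Its lowest arrays were PIO animals 10 and 9, and its second probe set followed the first (r = 0.98).

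Of the smooth muscle genes, only the more widely shared ones could be followed. Myh11, the smooth muscle myosin heavy chain and the most specific marker, stayed between 3.37 and 3.74, Cnn1 (calponin) between 2.28 and 2.38, and Des (desmin) between 3.31 and 3.45. All 3 had a mean below the filter, though single Myh11 arrays lay above it, so the smooth muscle label rests on Acta2, Tagln and Myl9, which pericytes and some fibroblasts also make. Acta2, smooth muscle actin, ran from 7.80 over 8.67 to 9.44 in controls and from 7.36 over 8.58 to 9.51 with PIO, a 4.44-fold span. Tagln, the actin-binding protein transgelin, ran from 5.68 over 5.83 to 6.24 in controls and from 5.28 over 5.94 to 6.92 with PIO. Myl9, the regulatory light chain of smooth muscle myosin, ran from 6.61 over 6.87 to 7.79 in controls and from 6.10 over 7.21 to 7.52 with PIO. The mean of the 3 was highest in PIO animal 11 (0.78) and control animal 6 (0.64) and lowest in PIO animals 10 (-0.85) and 9 (-0.54), so the highest and the lowest value both belonged to PIO animals.

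The basement membrane collagens varied little between animals. Col4a1 ran from 9.94 to 10.2 in controls and from 9.89 to 10.3 with PIO, and Col4a2 from 9.11 to 9.54 and from 8.95 to 9.43. Their spans were 1.30-fold and 1.51-fold, and the 2 genes, which encode chains of the same collagen trimer and share a promoter region, correlated with each other at r = 0.68.

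Most leptomeningeal members varied several times more. Over the 12266 genes tested, the median distance between the highest and lowest array was 0.48 log2 units, and 2.48% of genes exceeded 2 units. The sodium-coupled transporter gene Slc6a13, which carries GABA and taurine at the brain surface, ran from 2.91 over 6.19 to 7.96 in controls and from 2.95 over 7.02 to 8.26 with PIO, a 40.9-fold span. Col3a1, a fibrillar collagen, ran from 2.72 over 4.79 to 7.07 in controls and from 2.73 over 5.61 to 7.20 with PIO (22.3-fold), and Aldh1a2, the enzyme that makes retinoic acid in the meninges, from 4.53 over 6.61 to 8.44 and from 4.89 over 7.57 to 8.95 (21.5-fold). Both diets reached from the bottom to the top of these ranges. At their lowest, Slc6a13 and Col3a1 were below the filter level, so their spans depend on how the background was treated there.

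The growth factor gene Igf2 ran from 8.04 over 10.6 to 11.5 in controls and from 8.17 over 11.1 to 12.0 with PIO, a 15.8-fold span. Col1a2, which with Col1a1 forms type I collagen, spanned 11.5-fold (5.19 over 6.55 to 8.00 in controls, 5.11 over 6.89 to 8.63 with PIO) and Col1a1 3.22-fold. The second probe set above the filter correlated with the first at r = 0.54 for Igf2 and 0.77 for Col1a2. The organic anion transporter genes Slc22a8 and Slc22a6 spanned 10.6-fold and 3.51-fold. Slc22a8 ran from 5.64 over 7.18 to 8.05 in controls and from 5.18 over 7.74 to 8.58 with PIO, so the ranges again overlapped.

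Matrix and secreted products filled the middle of the range. Mgp, the inhibitor of calcification matrix Gla protein, spanned 8.36-fold, the small proteoglycan gene Bgn (biglycan) 7.81-fold, the secreted leucine-rich repeat gene Islr 7.15-fold and Ogn (osteoglycin) 5.94-fold. Fbln1 (fibulin 1) spanned 3.93-fold, Ptgds, the prostaglandin D synthase secreted into cerebrospinal fluid, 3.19-fold, and the proteoglycan genes Lum (lumican) and Dcn (decorin) 2.94-fold and 2.77-fold. Islr ran from 7.41 over 8.60 to 9.21 in controls and from 7.16 over 8.89 to 10.0 with PIO, and Ptgds from 13.6 over 14.5 to 14.9 and from 13.3 over 14.7 to 15.0. For both genes PIO animal 9 was lowest and PIO animal 11 highest. Cemip, a hyaluronan-degrading protein, stood apart with 1.45-fold, between 8.53 and 9.07 over all 16 arrays. Its second probe set above the filter correlated with the first at only r = 0.22.

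**Figure D1:**
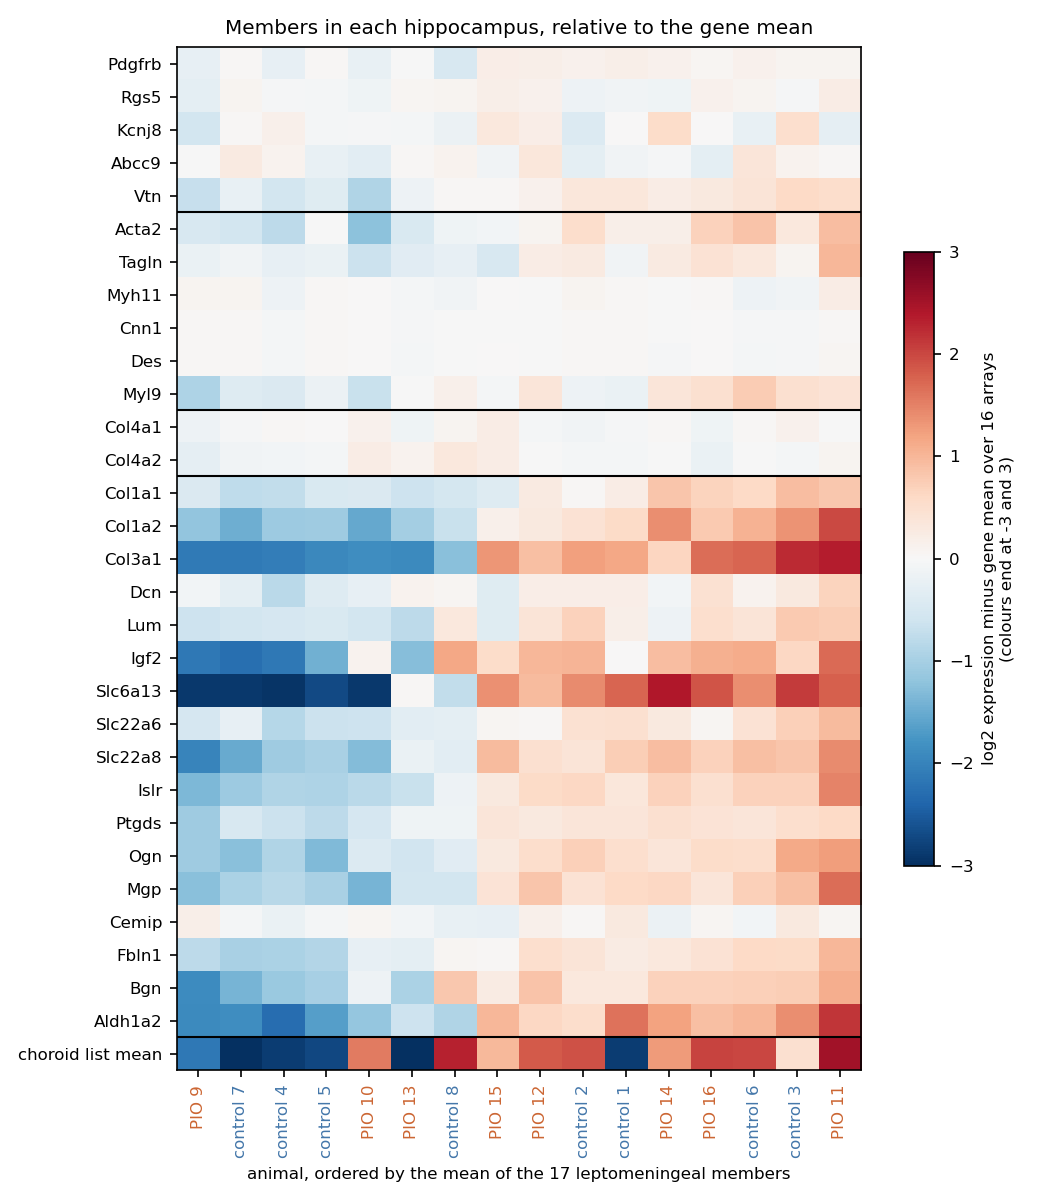
Log2 expression of the 30 members in each of 16 animals, as the difference from the gene's mean (colour, ending at -3 and 3), with animals ordered by the mean of the 17 leptomeningeal members and the choroid list mean in the bottom row. Horizontal lines separate pericyte, smooth muscle, basement membrane and leptomeningeal genes; most leptomeningeal rows pass from low to high in 1 order, most pericyte rows and the type IV collagens do not, and control 1, PIO 10 and control 8 break the match with the choroid row.

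Averaged over the 17 genes, the leptomeningeal set was lowest in PIO animal 9 (-1.24) and control animals 7 (-1.19), 4 (-1.18) and 5 (-1.04), and PIO animals 10 (-0.82) and 13 (-0.58) and control animal 8 (-0.22) followed. The other 9 animals lay between 0.33 (PIO animal 15) and 1.28 (PIO animal 11). Low and high animals were found on both diets.

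The first question was whether mural genes and leptomeningeal genes vary as 1 group. Correlations were taken over 16 arrays on deviations from the diet's mean. They are descriptions, since all genes share the same arrays. The 136 pairs of leptomeningeal genes had a median r of 0.87 (0.065 to 0.98), while the 10 pairs of pericyte genes had a median of 0.25. Pericyte genes correlated with leptomeningeal genes about as loosely, with a median of 0.32 over 85 pairs. Smooth muscle genes correlated with leptomeningeal genes at a median of 0.77 over 51 pairs, close to the 0.79 among themselves and above the 0.37 with pericyte genes. Basement membrane collagens had a median of 0.086 with the leptomeningeal genes over all 16 arrays. Batches here are 3 groups of arrays that share a code in their descriptions, whose meaning is not given. The pericyte medians were higher in the largest batch alone, 0.50 among pericyte genes and 0.52 with leptomeningeal genes, where smooth muscle genes had 0.76 with leptomeningeal genes. In the 6 arrays below the choroid gap, smooth muscle genes had a median of 0.33 among themselves. Between basement membrane collagens and leptomeningeal genes the median was negative on each side of the gap. It was -0.50 in the 10 arrays above and -0.17 in the 6 below, but 0.22 in the largest batch alone.

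Within the sets the genes differed. Against the mean of the other leptomeningeal members, Islr stood at r = 0.98, Aldh1a2, Ogn and Fbln1 at 0.97 and Col3a1 and Ptgds at 0.96, while Dcn reached 0.74 and Cemip 0.25. Among the mural genes Vtn reached 0.95, above 8 of these 17 leptomeningeal genes' own values, followed by Acta2 at 0.86, Myl9 at 0.81, Tagln at 0.71 and Pdgfrb at 0.61. Rgs5 (0.36), Kcnj8 (0.23) and Abcc9 (0.078) were only loosely related to it. Spearman's coefficients gave medians of 0.83 within the leptomeningeal set and 0.64 between mural and leptomeningeal genes, beside Pearson's 0.87 and 0.61.

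**Figure D2:**
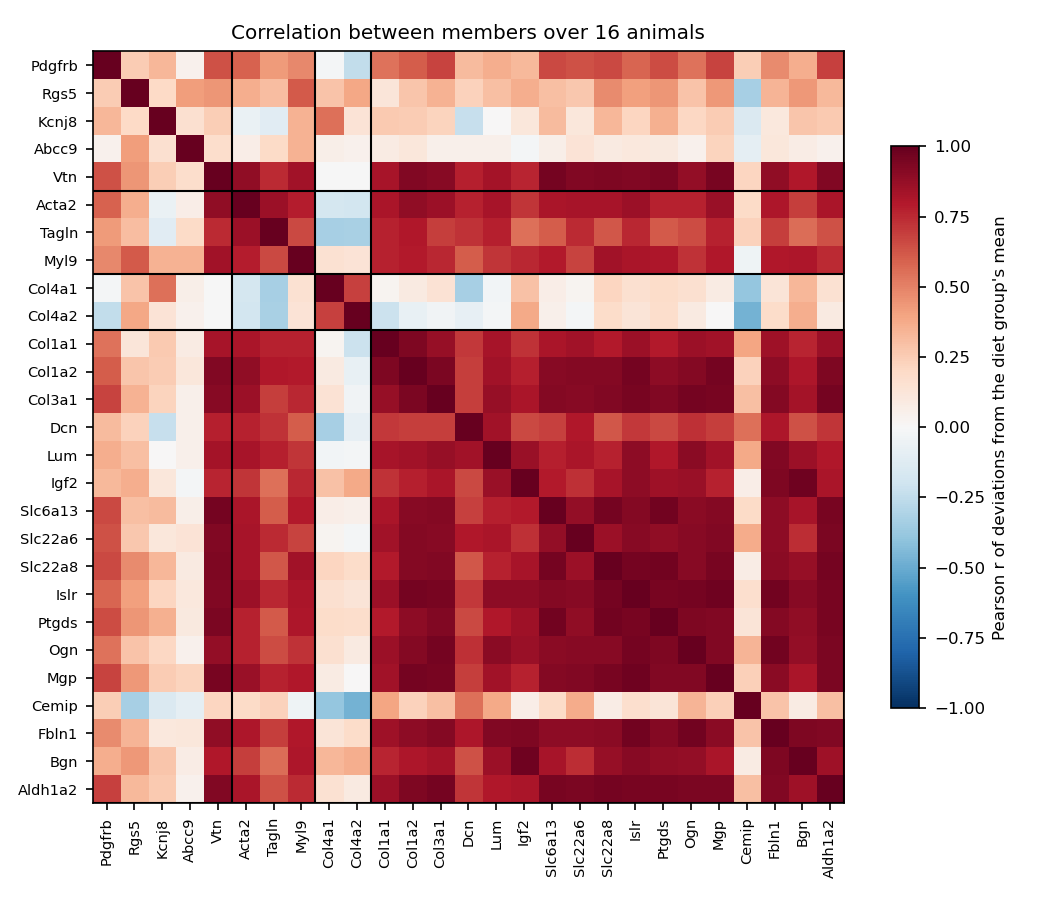
Pearson correlation (colour, -1 to 1) between the 27 measured members over 16 animals, on deviations from the diet's mean, with lines between the 4 sets. The leptomeningeal block is dark apart from Cemip, the Vtn, Acta2, Tagln and Myl9 rows join it, and Rgs5, Kcnj8, Abcc9 and the type IV collagens stay pale.

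These relations were also fitted against genes that are no members. The members and these lists were chosen with earlier results of these data known, so the fits are not an independent test. For each array the mean of 29 other leptomeningeal genes (such as Foxc1, Slc13a4, Zic1 and Fmod) was computed, and each of 12237 genes was fitted on it together with diet with limma, adjusting p over all of them. The slope says how many log2 units a gene rose per log2 unit of the list. Of the 27 members 18 had a positive slope past an adjusted p of 0.05, against 2.15% of all genes, and none had a negative one (0.00817% of all genes). They were 15 of 17 leptomeningeal genes, 1 of 5 pericyte genes (Vtn) and 2 of 3 smooth muscle genes (Acta2 and Myl9). The count was 8 of the 14 members left by a filter at the 60th percentile, and 11 in the 10 arrays above the choroid gap, against 0.262% of all genes there.

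The median slope of the leptomeningeal members was 1.27, against 0.0014 for all genes. The steepest was Slc6a13 at 3.07 (SE 0.29), followed by Col3a1 at 2.65 (SE 0.20) and Aldh1a2 at 2.12 (SE 0.17), and the values of the first 2 genes below the filter level enter their slopes. Islr had the smallest adjusted p of any member, 1.1e-07 by limma, with a slope of 1.27 (SE 0.077). Dcn had a slope of 0.39 (SE 0.099, limma adjusted p = 0.053) and Cemip of 0.052 (SE 0.068, limma adjusted p = 0.89). Dcn therefore missed the threshold narrowly, while Cemip showed no slope larger than its error.

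Among the mural genes Vtn had a slope of 0.63 (SE 0.068, limma adjusted p = 3.2e-05), Acta2 of 0.79 (SE 0.12, limma adjusted p = 0.0016) and Myl9 of 0.60 (SE 0.10, limma adjusted p = 0.0047). The Vtn call held under all 24 other settings tried. The Acta2 call was lost in the largest array batch alone, and the Myl9 call there, without the 2 arrays farthest out on the list, and in the arrays above the choroid gap. Tagln had a slope of 0.44 (SE 0.12, limma adjusted p = 0.068) and Pdgfrb of 0.18 (SE 0.063, limma adjusted p = 0.24). Rgs5, Kcnj8 and Abcc9 had slopes of 0.073, 0.12 and 0.022, each below 2 of its SE.

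The same fit placed other genes on this axis. Of 4 border macrophage genes 3 had a positive slope past the threshold, led by F13a1 at 1.42 (SE 0.14) and the mannose receptor gene Mrc1 at 1.41 (SE 0.17). Of 16 genes of PDGF and TGF beta signalling, the pathways that recruit and maintain mural cells, 4 did, led by the ligand gene Pdgfd at 0.95 (SE 0.096) and the receptor gene Tgfbr2 at 0.30 (SE 0.049). Of 11 measured SRF programme genes 2 did, Csrp2 at 1.13 (SE 0.23) and Cnn2 at 0.33 (SE 0.072), and of 9 retinoid genes 1, Dhrs3, which reduces retinal, at 0.23 (SE 0.051). Of 8 genes of the insulin-like growth factor system 1 did, the vascular binding protein gene Igfbp7 at 0.55 (SE 0.098).

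Of 10 other mural genes 2 did, Tbx18 at 1.41 (SE 0.15) and Atp13a5 at 0.47 (SE 0.12), and of 17 endothelial genes 4, led by Itm2a at 0.32 (SE 0.050) and Vwf at 1.13 (SE 0.27). None of 11 myelin genes, 12 hippocampal neuron genes, 11 ependymal genes, 7 striatal genes, 8 thalamic genes, 3 prostaglandin pathway genes or the 2 genes of the other ATP-sensitive potassium channel had a slope past the threshold.

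Turned around, the mean of the 10 other mural genes gave 14 members with a positive slope past the threshold, against 1.13% of all genes. They were 12 leptomeningeal genes, Vtn at 2.22 (SE 0.24) and Acta2 at 2.71 (SE 0.46). Pdgfrb, at 0.79 (SE 0.19, limma adjusted p = 0.058), and Tagln, at 1.61 (SE 0.38, limma adjusted p = 0.060), missed the threshold. The list holds Tbx18, a transcription factor gene of mural cells that leptomeningeal fibroblasts also express, and without it 10 members passed. In the arrays above the choroid gap the count was 8. No member had a negative slope past the threshold on this list (0.0408% of all genes). The list means themselves went together over 16 animals. Other leptomeningeal and other mural means had a Pearson r of 0.89 (permutation p = 2.0e-05, adjusted over 5 relations 1.0e-04; Spearman rho 0.83, permutation p = 1.7e-04, adjusted 8.5e-04), and r was 0.85 without the 2 animals farthest out. Tbx18 is part of this mural mean. Its slope on the leptomeningeal mean, 1.41, was the steepest of the 10 genes, with Atp13a5 next at 0.47. The r between the list means was not computed without Tbx18.

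The endothelial list, used as a measure of vessels, holds no member. Whether some members are also made by endothelium cannot be told in whole tissue. On the mean of 17 endothelial genes 7 members had a positive slope past the threshold, against 0.547% of all genes. They were Slc22a8, Ptgds, Mgp, Slc6a13, Islr, Vtn and Myl9. None had a negative slope past the threshold (0.00816% of all genes). Slc22a8 had a slope of 3.77 (SE 0.52, limma adjusted p = 0.0034) and Myl9 of 1.64 (SE 0.25, limma adjusted p = 0.0058). Rgs5, at 0.41 (SE 0.11), had a limma adjusted p of 0.12. This result rested on PIO animals 9 and 10, whose endothelial means were -0.59 and -0.49 while the other 14 lay between -0.17 and 0.25. Without PIO animal 9 the count was 0, without PIO animal 10 it was 3, and in the 10 arrays above the choroid gap it was 0. With array batch as a block it was 15. The share of all genes was not computed under these other settings, so these counts cannot be set against it. The endothelial mean had a Pearson r of 0.72 with the other leptomeningeal mean (permutation p = 7.2e-04, adjusted 0.0012; Spearman rho 0.74, permutation p = 0.00127, adjusted 0.0024; r = 0.72 without the 2 farthest) and of 0.76 with the other mural mean (permutation p = 2.5e-04, adjusted 6.3e-04; Spearman rho 0.74, permutation p = 0.00141, adjusted 0.0024; r = 0.74 without the 2 farthest).

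Endothelial and other leptomeningeal means were then put in the same fit. On the leptomeningeal mean 16 members kept a positive slope past the threshold, against 1.04% of all genes. On the endothelial mean 0 did, against 0.0327%. The 16 were 15 leptomeningeal genes and Vtn at 0.47 (SE 0.091, limma adjusted p = 0.022), whose call was lost under 5 of 23 other settings, among them leaving out control animal 2 or 4. Acta2 kept a slope of 0.76 (SE 0.20, limma adjusted p = 0.081). Rgs5 had a slope of 0.63 on the endothelial mean (SE 0.16, limma adjusted p = 0.088) and of -0.11 on the leptomeningeal one (SE 0.061, limma adjusted p = 0.38). The leptomeningeal count was 10 without control animal 2, 3 with batch as a block and 1 in the largest batch alone. This joint fit was chosen after the values were seen.

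The next question was how far the set followed the choroid plexus. On the choroid epithelium mean alone 4 members had a positive slope past the threshold, against 2.04% of all genes. Igf2 was clearest, at 0.55 (SE 0.066, limma adjusted p = 9.7e-05), and kept its call under all 23 other settings. None of these was a fit within the arrays on 1 side of the choroid gap. Its second probe set, which correlated with this one at r = 0.54, was not fitted on the choroid mean. Bgn had a slope of 0.36 (SE 0.059, limma adjusted p = 0.0021), Lum of 0.19 (SE 0.039, limma adjusted p = 0.013) and Fbln1 of 0.21 (SE 0.046, limma adjusted p = 0.020). No mural member passed. Islr, at 0.27 (SE 0.067), had a limma adjusted p of 0.051. The count was 1 in the largest batch alone, 2 with batch as a block, 2 without the 2 arrays farthest out, and 8, 7 and 7 without control animal 1, control animal 8 or PIO animal 10.

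These animals carried the sets apart. Control animal 1 had a leptomeningeal mean of 0.56, among the higher ones, with a choroid mean of -2.85. Control animal 8 and PIO animal 10 had choroid means of 2.31 and 1.56 with leptomeningeal means of -0.22 and -0.82. Igf2 stood at 11.5 in control animal 8, 10.4 in PIO animal 10 and 10.3 in control animal 1. Slc6a13 was low in both animals with much choroid signal (5.12 and 2.95) and high in control animal 1 (7.60).

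**Figure D3:**
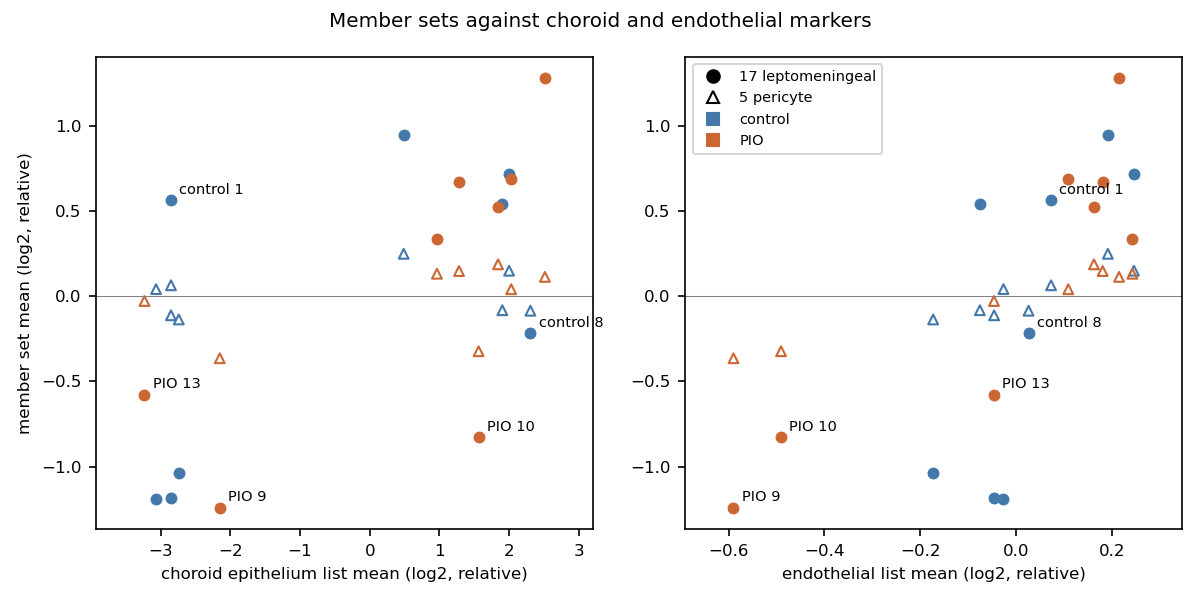
Mean of the 17 leptomeningeal members (filled circles) and of the 5 pericyte members (open triangles) in each animal against the choroid epithelium mean (left) and the endothelial mean (right), in log2 units relative to all 16 arrays, blue for control and orange for PIO. The choroid axis splits into 6 low and 10 high arrays and each side holds high and low leptomeningeal means; the pericyte means span less, from -0.36 to 0.25, and are lowest in PIO animals 9 and 10.

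The 2 sides of the gap differed in leptomeningeal level: 5 of the 6 arrays with low choroid means were among the 6 with the lowest leptomeningeal means, control animal 1 being the exception. The median slope of the leptomeningeal members on the choroid mean was 0.26, against -0.0028 for all genes. Over all arrays together, the choroid mean and the other leptomeningeal mean had a Pearson r of 0.75. No p-value is given for this pooled r, because the choroid means lay on both sides of a gap of 0.46 of their range. The same limit holds for the limma p-values of slopes on the choroid mean, which in large part compare the 2 sides of the gap. Within the 10 arrays above the gap, the choroid mean and the other leptomeningeal mean had a Pearson r of -0.063 (permutation p = 0.867, adjusted 0.867; Spearman rho 0.091, permutation p = 0.812, adjusted 0.812; r = 0.18 without the 2 farthest). Within the 6 below it, r was -0.23 (exact permutation p = 0.583, adjusted 0.729; Spearman rho -0.35, exact permutation p = 0.506, adjusted 0.633; r = 0.16 without the 2 farthest). The leptomeningeal genes still varied together on each side, with a median pairwise r of 0.77 above the gap and 0.89 below it. Between mural and leptomeningeal genes it was 0.66 above and 0.42 below. Below the gap, control animal 1 had a leptomeningeal mean of 0.56 while the rest lay between -1.24 and -0.58. The medians below the gap may therefore rest largely on that animal, and they were not computed without it. The gap was a smaller share of the range than the plan had set for such a split. The split at the gap was chosen after the values were seen.

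With both list means in 1 fit, 17 members had a positive slope on the other leptomeningeal mean, against 0.778% of all genes, and 1 on the choroid mean, against 0.622%. The 17 were 14 leptomeningeal genes (all but Dcn, Lum and Cemip), Vtn at 0.81 (SE 0.083, limma adjusted p = 6.4e-05), Acta2 at 0.91 (SE 0.18, limma adjusted p = 0.028) and Pdgfrb at 0.36 (SE 0.074, limma adjusted p = 0.034). Slc6a13 was steepest at 3.91 (SE 0.33), and Aldh1a2, at 2.67 (SE 0.17), had the smallest limma adjusted p, 1.0e-06. The Vtn call held under all 23 other settings, the Acta2 call was lost under 8 and the Pdgfrb call under 13, among them leaving out control animal 8 (slope 0.26, limma adjusted p = 0.16).

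Igf2 was the 1 member with a choroid slope past the threshold in this fit, 0.31 (SE 0.057, limma adjusted p = 0.013). Its leptomeningeal slope was 1.10 (SE 0.20, limma adjusted p = 0.012). The choroid call was lost without control animal 8 (0.23, limma adjusted p = 0.22), without PIO animal 10 (0.29, limma adjusted p = 0.077), with batch as a block (0.28, limma adjusted p = 0.097) and in the largest batch alone (0.23, limma adjusted p = 0.36). Bgn came next at 0.15 (SE 0.054, limma adjusted p = 0.26). Slc6a13 and Aldh1a2 had choroid slopes of -0.33 (SE 0.095, limma adjusted p = 0.15) and -0.22 (SE 0.048, limma adjusted p = 0.054). In the joint fit, then, 14 leptomeningeal genes kept a slope past the threshold on leptomeningeal genes. The choroid slope of Bgn, Lum and Fbln1 no longer passed. The choroid and other leptomeningeal means were correlated over all arrays (Pearson r = 0.75), so the joint fit cannot fully separate them.

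**Figure D4:**
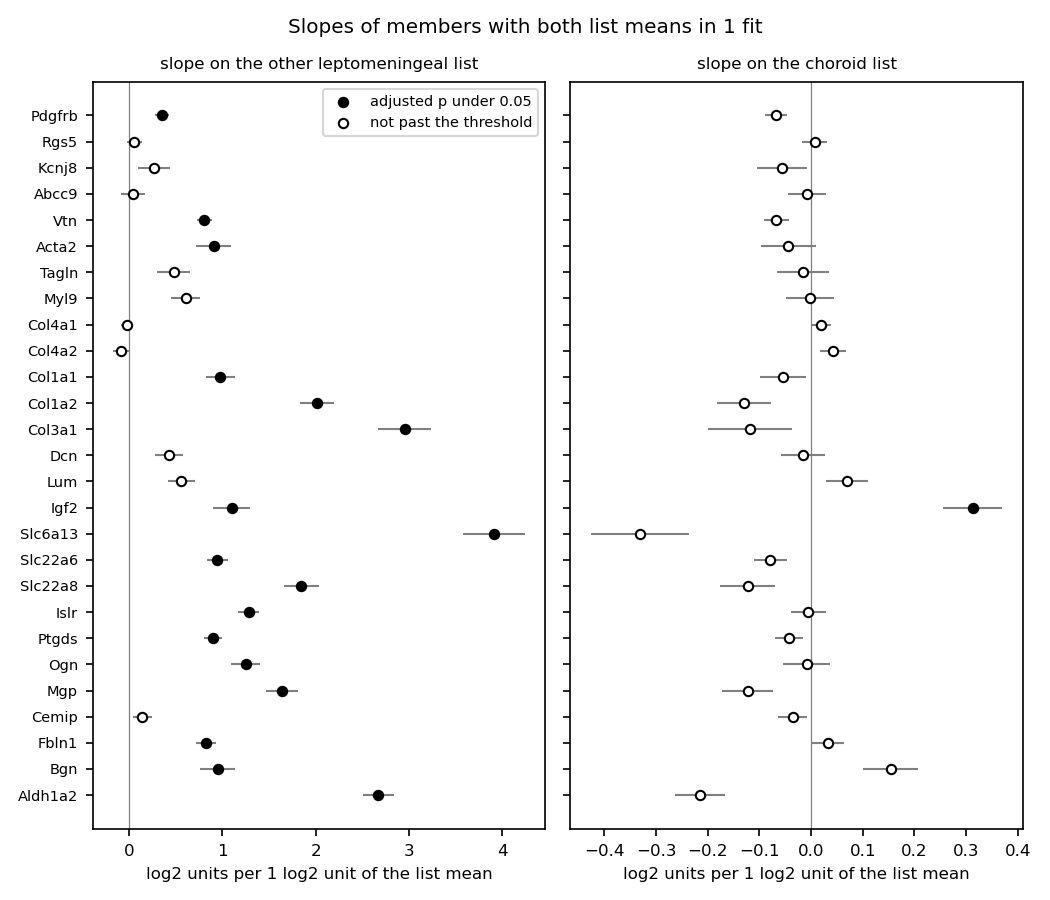
Slope of each measured member on the other leptomeningeal mean (left) and on the choroid epithelium mean (right), both in 1 limma fit with diet, in log2 units per log2 unit of the list, with the SE as bars (the 2 axes differ in scale). Filled points pass an adjusted p of 0.05: 17 on the left and Igf2 alone on the right.

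As a description, the genes outside the members whose levels went most closely with the mean leptomeningeal level were Slc6a20a (r = 0.988 over 16 arrays), Serping1 (0.981), Itih2 (0.981), Mpzl2 (0.978) and Cp (0.968), the last of which encodes ceruloplasmin. With the mean mural level they were Crip1 (0.966), Tapbp (0.938), Foxc1 (0.934), Aebp1 (0.924) and Srgn (0.919). Foxc1, a transcription factor gene needed for meningeal and mural development, was on the other leptomeningeal list.

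The last comparison asked whether the members differed between the diets, and none did past the test. In limma's test of 12266 genes 0 passed an adjusted p of 0.05 (0% of all genes, smallest adjusted p 0.457), and 859 genes (7.00%, with 3.86% higher and 3.15% lower with PIO) but 0 of the 27 members had an unadjusted p under 0.05. A plain test with equal variances also gave 0 members at an unadjusted p under 0.05. The adjusted p of the members lay between 0.87 and 1.00.

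Pericyte genes differed by little. Pdgfrb averaged 9.25 ± 0.23 on the control diet and 9.28 ± 0.17 on PIO (SD over 8 animals each), a difference of 0.035 with a 95% interval from -0.17 to 0.24. Rgs5 differed by 0.038 (SE 0.070), Kcnj8 by 0.042 (SE 0.15), Abcc9 by -0.091 (SE 0.10) and Vtn by -0.14 (SE 0.21). Of the smooth muscle genes Acta2 differed by -0.097 (SE 0.29), Tagln by 0.058 (SE 0.19) and Myl9 by -0.014 (SE 0.22), and the type IV collagen genes by -0.027 (SE 0.054) and 0.032 (SE 0.077). Of the 8 mural genes 4 were higher and 4 lower, with a median of 0.010 against 0.0045 for all genes. The intervals leave a change of Rgs5 between -0.11 and 0.19, but of Acta2 between -0.70 and 0.51.

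Of the 17 leptomeningeal genes 15 were higher with PIO, with a median difference of 0.18, none past the test, while 6463 of all 12266 genes were higher. The largest were Slc6a13 at 0.66 (SE 1.01, 95% interval -1.47 to 2.79), Aldh1a2 at 0.54 (SE 0.68) and Igf2 at 0.48 (SE 0.65), and the lower ones were Lum at -0.21 (SE 0.26) and Slc22a6 at -0.014 (SE 0.25). The second Igf2 probe set above the filter differed by -0.0082. The 17 genes varied together, so their directions are not independent observations. The set averaged -0.11 ± 0.92 on the control diet and 0.11 ± 0.88 on PIO (SD over 8 animals each), so the diets differed by much less than the animals. Choroid epithelium genes moved the same way, 19 of 19 higher with a median of 1.16 and none at an unadjusted p under 0.05, with list means from -3.06 to 2.31 in controls and from -3.23 to 2.51 with PIO. Markers of other tissue shifted as well: 10 of 11 ependymal, 7 of 7 striatal (2 at an unadjusted p under 0.05) and 8 of 8 thalamic genes were higher with PIO, and 11 of 11 myelin genes (5 at an unadjusted p under 0.05) and 10 of 12 hippocampal neuron genes were lower. The thalamic mean was 1.57 in PIO animal 16, with medians of -0.046 on PIO and -0.14 in controls. The striatal mean was 1.11 and 0.92 in PIO animals 15 and 14, with medians of 0.013 on PIO and -0.20 in controls. The part of these lists in the leptomeningeal difference was not tested beyond fits with a list mean added, in which the median was -0.072 (choroid) and -0.068 (other leptomeningeal genes).

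**Figure D5:**
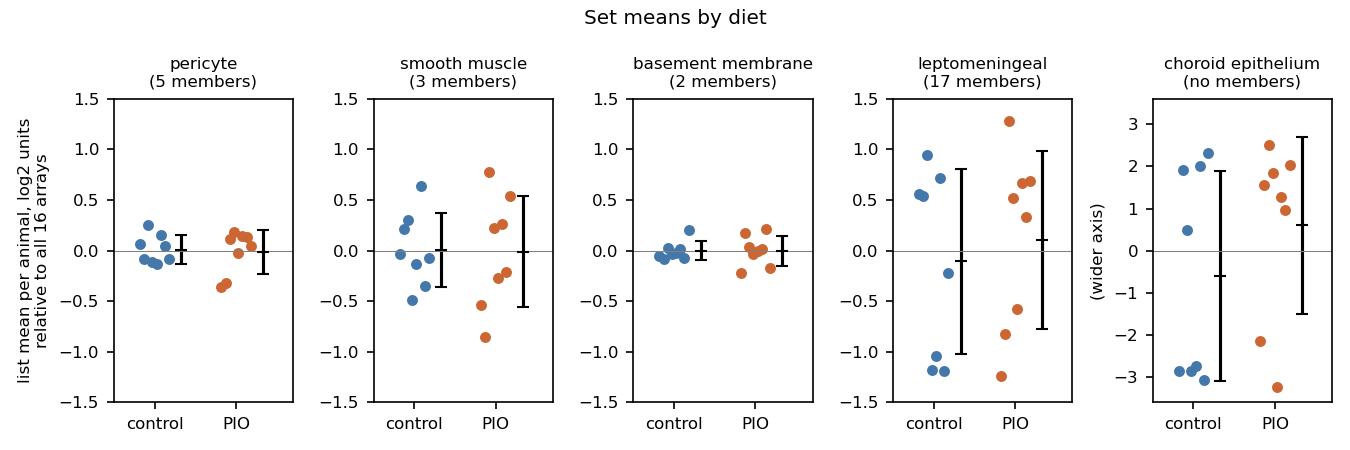
Mean of each member set and of 19 choroid epithelium genes in each animal, in log2 units relative to all 16 arrays, for 8 control (blue) and 8 PIO (orange) animals, with mean and SD in black (the choroid panel has a wider axis). The diets overlap in every panel, and the spread is widest for the choroid and leptomeningeal sets.

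The direction of the leptomeningeal difference depended on which arrays were compared. In the largest batch by the description code, with 5 control and 6 PIO arrays, the median over the 17 genes was -0.30. With batch as a block it was 0.095. In arrays numbered 10 to 24 (4 control and 6 PIO) it was 0.85, and 6 members were higher at an unadjusted p under 0.05, against 5.38% of all genes: Slc6a13 at 2.65 (SE 0.79), Aldh1a2 at 1.74 (SE 0.61), Slc22a8 at 1.19 (SE 0.44), Ogn at 1.00 (SE 0.40), Mgp at 1.00 (SE 0.43) and Ptgds at 0.60 (SE 0.21). None of these passed after adjustment (limma adjusted p between 0.56 and 0.63). The control arrays of that range are animals 5 to 8, with leptomeningeal means of -1.04, 0.72, -1.19 and -0.22 and choroid means of -2.74, 2.00, -3.06 and 2.31, and its PIO arrays are animals 11 to 16, with leptomeningeal means from -0.58 to 1.28. With 1 animal left out the median lay between 0.040 (without PIO animal 11) and 0.38 (without PIO animal 9), and for the mural genes between -0.077 and 0.078 (the same animals).

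Related pathways gave no call either. Of 16 PDGF and TGF beta genes 10 were higher and 6 lower with a median of 0.046, and Pdgfc, a platelet-derived growth factor, differed by 0.23 (SE 0.11, limma adjusted p = 0.71). Of 11 SRF programme genes 5 were higher and 6 lower, with Csrp1 at -0.13 (SE 0.061, limma adjusted p = 0.71). Of 9 retinoid genes 6 were higher, with Aldh1a1 at -0.22 (SE 0.13), and of 8 insulin-like growth factor genes 3 were higher, with Igfbp5 at -0.14 (SE 0.066) and Igfbp3 at 0.26 (SE 0.13). Abcc8 and Kcnj11, the neuronal counterparts of Abcc9 and Kcnj8, differed by -0.13 (SE 0.062) and -0.040 (SE 0.068). Of 3 measured prostaglandin genes 1 was higher, and Ptgs2 differed by -0.12 (SE 0.097). Of 10 other mural genes 6 were higher, with the myosin kinase gene Mylk at 0.18 (SE 0.065, limma adjusted p = 0.68), and of 29 other leptomeningeal genes 22, with a median of 0.17 and Col6a2 at 0.44 (SE 0.18, limma adjusted p = 0.68). Of 17 endothelial genes 10 were higher, and the angiopoietin receptor gene Tek differed by -0.44 (SE 0.17, limma adjusted p = 0.68).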

How the data were processed

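Total RNA of 16 hippocampi was measured on 16 arrays, 8 per diet, each from a separately numbered subject per the labels. The values deposited by the authors are log2 expression per probe set. That scale was taken from the values themselves, which run from 0.33 to 16.6 (array medians 5.65 to 5.76) and are used as already normalized. MAS5, GCRMA and R 2.7.1 are named with no role, per the submitters' processing notes, and the one behind these values cannot be told from the sources used here. A background correction can hold dim probe sets in a narrow low band and widen differences just above it.

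Of 45101 probe sets 64 controls were left out; of the rest 34945 had 1 gene symbol in the platform annotation, 932 several and 9160 none, and only the first were named. A gene was represented by its probe set with the highest mean over all arrays. Genes with a mean above the 40th percentile of probe sets (3.58) were tested, 12266 in all. Differences (PIO minus control) and slopes on list means were fitted with limma 3.58.1 (lmFit, eBayes; R 4.3.3), with diet in every fit and Benjamini-Hochberg adjustment over all genes; genes of a list were left out of the fit on its own mean. A list mean is the mean over its tested genes after subtracting each gene's mean over 16 arrays. Correlations of list means used permutation tests in scipy 1.17.1. The fits were tested on simulated data. The members and all gene lists were chosen with earlier results of these data known. All 30 members are named, up to 2 genes per direction of each related list by smallest p, and the 5 nearest genes outside the members for each set.

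A code in the array descriptions gives 3 groups of arrays, called batches here, the largest with 5 control and 6 PIO arrays. An array number runs from 1 to 6 in 4 control and 2 PIO arrays and from 10 to 24 in 4 and 6. The sources used here do not say what either means. Other settings were no filter, a filter at the 60th percentile (7.39), quantile normalization, a common median, batch or number range as a block, the largest batch or arrays 10 to 24 alone, array weights, a trended and robust prior, a list mean as covariate, other probe sets, a plain test with equal variances, leaving out the 2 arrays farthest out on a list, and each animal in turn. Joint fits with the endothelial mean, fits within the arrays above the choroid gap and the mural list without Tbx18 were chosen after seeing the data. Slopes within the arrays above the gap were fitted on the other leptomeningeal, other mural and endothelial means, not on the choroid mean or in joint fits. Arrays give no read depth, and their number limits the precision.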

Additional observations from a re-analysis of the deposited data

Results flagged for a closer look

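Among 76 sets of 8 values checked for a value far from the others, 2 stood out, both in control animal 8 and both of type IV collagen. A check of this kind picks about 1 in 20 groups by chance. Col4a2 was at 9.535 in control animal 8, the highest of the controls, with the next at 9.21 and the gap 0.767 of the range. The mean of Col4a1 and Col4a2 was 0.2038 in the same animal, with the next at 0.0295 and the gap 0.599 of the range.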

How the results depend on the processing

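No paired analysis was possible because the 2 diet groups share no replicate numbers. No member and no gene passed an adjusted p of 0.05 between the diets under any setting run. At an unadjusted p under 0.05 the count of members was 0 except in arrays 10 to 24 alone (6) and with the choroid (1) or other leptomeningeal mean (2) as covariate. The share of all genes was 7.00% in the main fit and was not computed for these covariate fits. The median difference of the leptomeningeal members lay between -0.30 and 0.85 over the settings. Counts of members with a slope past the threshold changed as follows, and the cause was not tested except that fewer genes or arrays enter a stricter filter or a subset. Where no share of all genes stands beside a count by setting, here or above, that share was not computed. With the filter at the 60th percentile they were 8 on the other leptomeningeal mean, 7 on other mural, 4 on endothelial, 9 on leptomeningeal with choroid and 7 on leptomeningeal with endothelial. With batch as a block they were 2 on choroid, 15 on endothelial, 0 on choroid with leptomeningeal and 3 on leptomeningeal with endothelial. In the largest batch alone they were 1, on choroid, 0 on choroid with leptomeningeal and 1 on leptomeningeal with endothelial. Without the 2 arrays farthest out they were 2 on choroid and 0 on endothelial. Above the choroid gap they were 11 on other leptomeningeal (against 0.262% of all genes), 8 on other mural and 0 on endothelial. On choroid with leptomeningeal the count was 2 with quantile normalization and 2 with the trended and robust prior. With 1 animal left out, counts ranged from 18 to 20 on other leptomeningeal, 3 to 8 on choroid, 14 to 19 on other mural, 0 to 10 on endothelial, 13 to 17 on leptomeningeal with choroid, 0 to 2 on choroid with leptomeningeal, 10 to 17 on leptomeningeal with endothelial and 0 to 1 on endothelial with leptomeningeal (1 without control animal 7). The median correlation ranged from 0.85 to 0.90 within leptomeningeal members and from 0.57 to 0.67 between mural and leptomeningeal members. The value table used here has no detection calls or background values, so how far members near the filter rise above background is unknown.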

Other observations

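Of 11 ependymal genes, which line the ventricle, 6 had a positive slope on the choroid epithelium mean past an adjusted p of 0.05 by limma (2.04% of all genes did), with a median slope of 0.20, and 0 had one on the other leptomeningeal mean (2.15% of all genes). Of 4 border macrophage genes 0 had a slope on the choroid mean past the threshold and 3 had one on the leptomeningeal mean. Of 19 choroid epithelium genes 12 had a positive slope past the threshold on the leptomeningeal mean, led by the potassium channel gene Kcnj13 at 4.47 (SE 0.75). Of 29 other leptomeningeal genes 5 had one on the choroid mean. The differences between these pairs of counts were not tested.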
